A study of Mus musculus with 6 samples.

Results

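The genes described here encode parts of the sarcomere of the mouse left ventricle: the thin filament, the Z-disc, the M-band, titin and the proteins bound to it, and the filaments and chaperones that hold these structures together, with the myosins left out. They were chosen by their known place in the sarcomere, at a time when earlier results of these data were known. Every probe annotated to them was read on all 6 arrays. The group has 43 members. A named probe was found for 41 of them, among 19057 genes with a named probe, and 37 were tested, among 9649 genes. Tnnt2 and Xirp1 had no named probe here, and Tnni1, Neb, Nebl and Nexn were below the background level on every array.

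The arrays compared wild-type (WT) mice with mice lacking Kdm3a (KO), a demethylase of histone H3 lysine 9, after transverse aortic constriction (TAC), which narrows the aorta and overloads the ventricle, or after sham surgery. WT Sham and KO Sham were 1 array each, and WT TAC and KO TAC 2 arrays each. The labels describe male mice of the c57/BL6 strain, operated on at an age of 6 to 8 weeks, with left ventricles taken 3 weeks later, and the genotypes as wild type and Kdm3a-KO. In the study's text the deletion is global, the controls are littermates, the interval after surgery is longer than in the labels, and a KO line on a mixed FVB/C57/Bl6J background is described beside one in C57/Bl6J, so the strain and the interval behind these arrays rest on the labels alone. The labels do not say that replicate arrays came from separate animals, and p-values measure the spread between these arrays, which may be technical.

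In each sarcomere, thin filaments of actin, tropomyosin and troponin run from the Z-disc, where alpha-actinin crosslinks them, and titin spans from the Z-disc to the M-band as an elastic spring. Calcium binding to troponin moves tropomyosin and lets myosin act on actin. In the heart under pressure load these structures are known to be rebuilt, and several proteins of the Z-disc and of titin's spring region are induced by stretch.

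Values are deposited intensities, in arbitrary units on a linear scale, given in the order WT Sham, WT TAC replicates 1 and 2, KO Sham, KO TAC replicates 1 and 2. Levels of different probes cannot be set against each other. A probe counted as above background when it exceeded a level between 149.0 and 155.1, set on each array by probes for receptors taken as silent in heart. Fold changes are on the normalized log2 scale with standard errors after the plus-minus sign, from limma fitted to all genes, after the background was taken off, which makes the folds of dim probes larger than the ratios of their deposited intensities, and p-values were adjusted over all genes and called at 0.05. Each gene is given by its brightest probe, and p-values of its other probes come from a fit of all kept probes, adjusted over those. Each sham group was 1 array, so that its spread was taken from the TAC arrays.

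Over all genes both WT TAC arrays were far from the rest. A principal component with 82% of the variance split them off, and arrays correlated at 0.984 to 0.995 among the other 4 and at 0.917 to 0.931 between these and WT TAC. Probe ILMN_3118169 of Kdm3a read 292, 296 and 264 on the WT arrays and 129, 137 and 143 on the KO arrays, where it was below background. Kdm3a probes ILMN_2707895 (466 to 502 on the WT arrays, 361 to 394 on the KO arrays) and ILMN_3043245 (299 to 336 and 196 to 231) stayed above background on every array, lower in KO without overlap, and which exons were deleted is not given in the labels. All 10 ventricular cardiomyocyte markers were above background on every array, and their summed intensity lay between 220527 and 231935, so that the labelled tissue matched its markers. As these are whole ventricles, fewer cells of a type and less RNA per cell cannot be told apart.

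The promoters of several members hold letters known to bind muscle transcription factors, and 5 members with such letters are shown because they include the gene that changed most between the KO TAC and WT TAC thin filaments, its paralog that did not pass the test, and 3 genes bound to titin. RefSeq promoters on GRCm38.p6 were at hand for 36 of the 43 members, as 50 windows of the 250 bases before a start. The CArG box, the site of serum response factor, occurred in 9 of the 50 windows (18%), in Acta1, Actc1, Nebl, Ldb3, Fhl1, Fhl2 and Myom1, and in 482 of all 32851 windows (1.47%). The MCAT letters CATTCC, the core of sites for TEAD factors, read on both strands, occurred in 10 of the 50 windows (20%) and in 12.6% of all windows. Capitals mark the CArG box in the first 5 sequences and the MCAT letters, on the opposite strand, in the sixth, and every sequence ends at the base before the start.
Acta1, chr8:123894776-123894885, minus strand: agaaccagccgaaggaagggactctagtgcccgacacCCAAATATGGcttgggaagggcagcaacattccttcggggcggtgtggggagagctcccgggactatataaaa
Actc1, chr2:114052876-114052985, minus strand: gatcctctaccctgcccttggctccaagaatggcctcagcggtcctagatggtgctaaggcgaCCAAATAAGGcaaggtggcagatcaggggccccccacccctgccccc
Fhl1, chrX:56779573-56779682, plus strand: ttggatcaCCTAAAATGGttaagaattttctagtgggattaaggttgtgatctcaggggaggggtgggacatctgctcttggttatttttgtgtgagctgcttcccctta
Fhl2, chr1:43196762-43196871, minus strand: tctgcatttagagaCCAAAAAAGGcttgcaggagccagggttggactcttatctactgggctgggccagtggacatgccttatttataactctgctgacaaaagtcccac
Fhl2, a second start, chr1:43163962-43164071, minus strand: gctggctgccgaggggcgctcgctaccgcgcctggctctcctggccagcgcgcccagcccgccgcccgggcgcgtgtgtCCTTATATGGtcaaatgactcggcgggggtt
Ankrd1, chr19:36119845-36120064, minus strand: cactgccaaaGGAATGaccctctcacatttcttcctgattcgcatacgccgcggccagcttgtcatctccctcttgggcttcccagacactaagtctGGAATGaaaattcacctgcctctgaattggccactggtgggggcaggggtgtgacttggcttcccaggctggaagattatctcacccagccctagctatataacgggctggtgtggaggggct
The CArG box lay 73 bases before the start in Acta1, 47 in Actc1, 102 in Fhl1, and 96 and 31 before the 2 starts of Fhl2, and the MCAT letters lay 210 and 123 bases before the start of Ankrd1. These are matches of letters, and nothing on binding was measured.

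More members were called higher than lower in the WT TAC arrays relative to the single WT Sham array. In WT TAC vs WT Sham, 16 of the 37 tested members were called higher and 4 lower, beside 15.3% of all genes higher and 15.8% lower, and the median log2 difference was 0.36 over the members and -0.07 over all genes. Called higher were Tpm3, Tpm4, Lmod2, Tcap, Pdlim1, Pdlim3, Synpo2l, Flnc, Enah, Xirp2, Ankrd1, Ankrd2, Ankrd23, Fhl1, Myom2 and Des. Called lower were Tnni3, Tnnt1, Smyd1 and Ky. Both WT TAC arrays lay above the other 4 in 19 members (51.4%, against 28.3% of all genes) and below them in 8 (21.6%, against 33.9%), with no test. Leaving out 1 TAC array at a time, 10 of the 16 and 2 of the 4 stayed called in each fit, and the count of members called higher was 12 without WT TAC replicate 1 and 10 without WT TAC replicate 2, with 2 called lower in the latter.

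Under overload more members were called lower than higher in the KO ventricles. In KO TAC vs WT TAC, 5 members were called higher and 16 lower, beside 21.5% of all genes higher and 19.5% lower, and the median log2 difference was -0.32 over the members and 0.04 over all genes. Lower were Acta1, Tpm3, Tpm4, Pdlim1, Pdlim3, Synpo2l, Flnc, Enah, Xirp2, Ankrd1, Ankrd2, Ankrd23, Fhl1, Myom2, Des and Bag3. Higher were Tnni3, Tnnt1, Ldb3, Smyd1 and Ky. With 1 TAC array left out at a time, 14 of the 16 and 3 of the 5 stayed called, and 3 were called higher without WT TAC replicate 1. The comparison shares its WT TAC arrays with WT TAC vs WT Sham, so the opposite signs of the same genes in the 2 comparisons are not independent of each other.

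No member passed the test between TAC and sham in KO hearts. In KO TAC vs KO Sham the counts were 0 higher and 0 lower, beside 0% and 0% of all genes, with 1 member, Myot, and 253 genes at an unadjusted p under 0.05 (limma). The member differences ran from -0.70 ± 0.42 in Acta1 to 0.39 ± 0.26 in Pdlim3. The TAC effect itself differed between the genotypes in 10 members, 2 with a positive and 8 with a negative difference (KO minus WT), beside 5.62% and 8.37% of all genes. The positive ones were Tnnt1 and Ky, and the negative ones Tpm3, Lmod2, Synpo2l, Xirp2, Ankrd1, Ankrd2, Fhl1 and Des. With each TAC array left out in turn, Tnnt1, Ky, Synpo2l and Fhl1 stayed called, while Tpm3, Lmod2, Xirp2, Ankrd1 and Des did not. Ankrd2 also stayed called, but its probe passed the filter only through the WT TAC arrays. The filter was not applied again in these fits, so the kept call of Ankrd2 is no support.

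**Figure D1:**
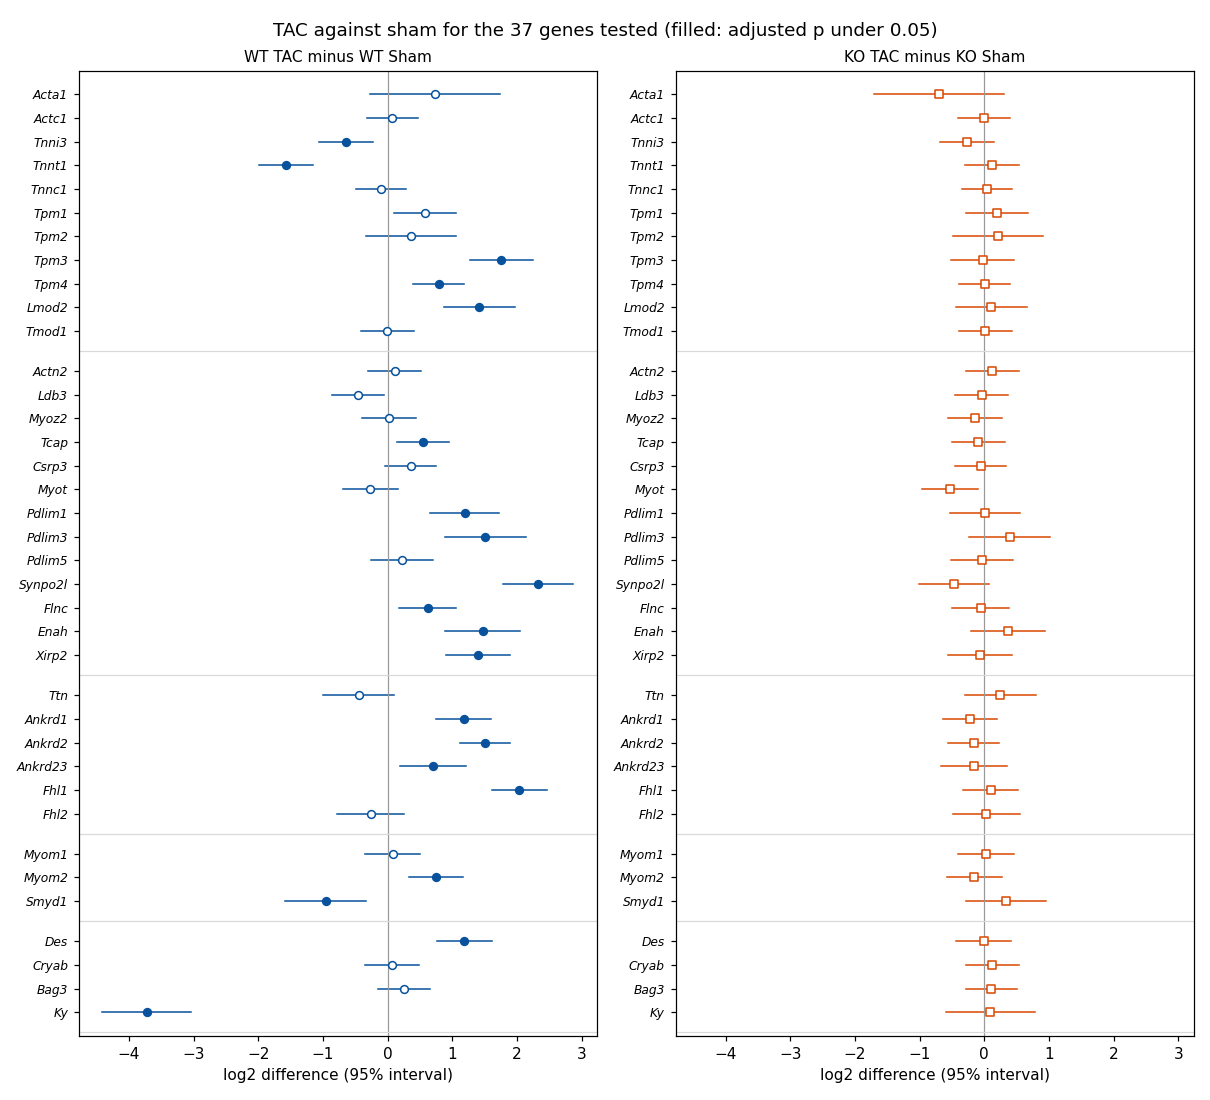
Log2 difference between TAC and sham in WT (left) and KO (right) for the 37 members tested, in the order thin filament, Z-disc, titin-bound, M-band, and filament with chaperones, with grey lines between these roles. Points are limma estimates with 95% intervals and are filled where the adjusted p was under 0.05, which held for 20 members in WT and for 0 in KO.

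Without overload, 0 members were called higher and 0 lower in KO Sham vs WT Sham, beside 0.0415% and 0.0207% of all genes, in a comparison of 1 array with 1. At an unadjusted p under 0.05 (limma) there were 6 members, Acta1, Tnnt1, Lmod2, Tcap, Myot and Ttn, with log2 differences of -1.23, 0.70, 0.99, 0.53, 0.66 and -0.96, beside 769 of the 9649 genes. All 3 KO arrays lay above all 3 WT arrays in 5 members, Tnnt1, Tmod1, Ldb3, Myot and Fhl2 (13.5%, against 13.6% of all genes). All 3 lay below in 10 members, Acta1, Actn2, Pdlim1, Synpo2l, Flnc, Xirp2, Ankrd2, Ankrd23, Myom1 and Bag3 (27%, against 11.6% of all genes). Of these, Ankrd2 was below background on the WT Sham array and on all 3 KO arrays, and was tested only because it was high in WT TAC. Its place in this count therefore carries no weight. These counts carry no test.

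**Figure D2:**
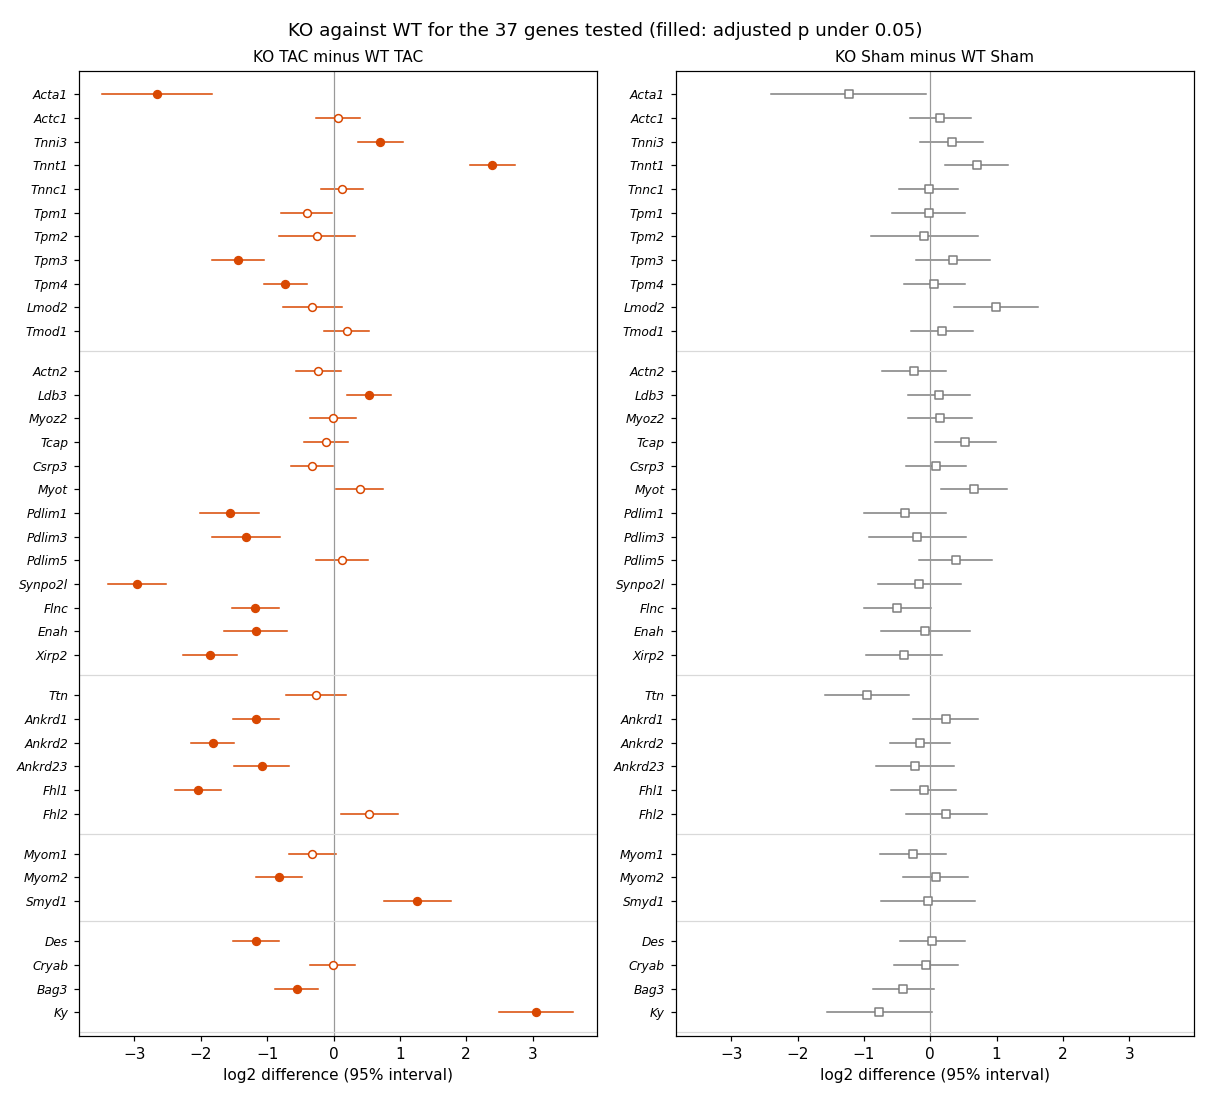
Log2 difference between KO and WT after TAC (left) and after sham (right) for the 37 members tested, in the same order of roles. Points are limma estimates with 95% intervals and are filled where the adjusted p was under 0.05, which held for 21 members after TAC and for 0 after sham.

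Among the thin filament genes, skeletal actin and the tropomyosins Tpm3 and Tpm4 were lower in KO TAC relative to WT TAC, and the slow skeletal troponin T was higher. Of 11 tested, 3 were called higher and 2 lower in WT TAC vs WT Sham, and 2 higher and 3 lower in KO TAC vs WT TAC. The share called was 45.5% in each, beside 31.1% and 41% of all genes, so in the second comparison it was close to that of all genes. Acta1 (chromosome 8), the skeletal alpha-actin that the fetal heart also uses, read 19904, then 33790 and 32227 in WT TAC, 8540 in KO Sham, and 7868 and 3586 in KO TAC. All 3 KO arrays lay below the lowest WT array, and the KO TAC replicates were further apart than the WT TAC replicates. Acta1 was 6.33-fold lower in KO TAC relative to WT TAC (log2 -2.66 ± 0.34, adjusted p 0.00168). Its rise of 0.73 ± 0.42 in WT and the difference of the TAC effects (-1.43 ± 0.60) did not pass (adjusted p 0.227 and 0.156).

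Actc1, the cardiac alpha-actin of the adult heart, lay between 31920 and 35604 on the 6 arrays and did not pass in any comparison. In KO TAC vs WT TAC its log2 difference was 0.07 ± 0.14 with its brightest probe and 0.32 ± 0.15 with the second. The brightest probe of Actc1 was over 30000 on every array, near the top of the deposited scale, and whether changes are compressed there was not tested. Acta1 and Actc1 are close in sequence, and whether their probes also bind each other's transcript was not tested.

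Tnnt1 encodes slow skeletal troponin T, which ties troponin to tropomyosin. It read 945 in WT Sham, 391 and 380 in WT TAC, 1467 in KO Sham, and 1488 and 1684 in KO TAC. The WT TAC arrays were the lowest and the 3 KO arrays the highest. Tnnt1 was 2.98-fold lower in WT TAC than in WT Sham (log2 -1.58 ± 0.17, adjusted p 0.00162) and 5.24-fold higher in KO TAC relative to WT TAC (2.39 ± 0.14, adjusted p 0.000117). The TAC effects differed by 1.69 ± 0.25 (adjusted p 0.00934).

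Tnni3, the cardiac troponin I that holds contraction off at low calcium, followed with smaller steps, at 6119, then 3777 and 4128, then 7615, then 6042 and 6697. It was 1.56-fold lower in WT TAC than in WT Sham (adjusted p 0.0325) and 1.63-fold higher in KO TAC relative to WT TAC (adjusted p 0.00899). Without WT TAC replicate 1 these adjusted p-values were 0.113 and 0.0579, and without WT TAC replicate 2 the first was 0.0862. Tnnc1, the calcium sensor of cardiac and slow muscle, lay between 38886 and 43297, at the top of the deposited scale, and passed in no comparison. The embryonic and slow troponin I, Tnni1, lay between 127 and 142 on all arrays, below background.

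The tropomyosins lie along actin and block or open its myosin sites. Tpm3 (chromosome 3), the slow-muscle form that also gives nonmuscle isoforms, read 550 in WT Sham, 1552 and 1681 in WT TAC, 671 in KO Sham, and 597 and 733 in KO TAC. The WT TAC arrays stood above the other 4, among which WT Sham was the lowest. Tpm3 was 3.39-fold higher in WT TAC than in WT Sham (log2 1.76 ± 0.20, adjusted p 0.00186), 2.71-fold lower in KO TAC relative to WT TAC (-1.44 ± 0.17, adjusted p 0.00112), and the TAC effects differed by -1.79 ± 0.29 (adjusted p 0.0123). That difference had an adjusted p of 0.0556 without WT TAC replicate 2. A second probe of Tpm3 rose by 0.70 in WT TAC without passing (adjusted p 0.0509), and another, dimmer probe by 1.09 (adjusted p 0.00536).

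Tpm4, a form of the cytoskeleton, read 3432, then 5653 and 6065, then 3567, then 3681 and 3481. It was 1.73-fold higher in WT TAC than in WT Sham (adjusted p 0.0145) and 1.65-fold lower in KO TAC relative to WT TAC (adjusted p 0.00669), and the adjusted p-values were 0.0729 and 0.0521 without WT TAC replicate 2. Tpm1, the main tropomyosin of the mouse heart, read 1226, then 1705 and 1862, then 1206, then 1234 and 1521. Its brightest probe missed the threshold in WT TAC vs WT Sham and in KO TAC vs WT TAC (adjusted p 0.0675 and 0.089), and its second probe passed in both (log2 0.63 and -0.54, adjusted p 0.0422 and 0.0277).

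Tpm2, the beta form, had 2 kept probes that differed. The brighter read 510, then 656 and 598, then 486, then 449 and 667, and passed in no comparison. The other, ILMN_2482209, read 218, then 216 and 207 on the WT arrays, and 133, then 114 and 125 on the KO arrays, which were all below background. After background correction that probe was at least 2.16-fold lower in KO TAC relative to WT TAC (adjusted p 0.000193), against 1.77-fold in the intensities as deposited, while KO Sham vs WT Sham had an adjusted p of 0.0549. Its WT and KO arrays did not overlap, and TAC vs sham was called in neither genotype.

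Lmod2, a leiomodin that elongates thin filaments at their pointed ends, was a dim probe, at 141 in WT Sham, 220 and 190 in WT TAC, 178 in KO Sham, and 190 and 178 in KO TAC. The WT Sham array was the only one below background. After background correction Lmod2 was at least 1.96-fold higher in WT TAC than in WT Sham (adjusted p 0.00585), against 1.45-fold in the intensities as deposited. In KO Sham it was at least 1.46-fold higher than in WT Sham (1.26-fold as deposited), which did not pass (adjusted p 0.477). The TAC effects differed by -1.31 ± 0.33 (adjusted p 0.0438), a call that turns on the WT Sham array. It was lost without WT TAC replicate 1, WT TAC replicate 2 or KO TAC replicate 2 (adjusted p 0.0875, 0.0554 and 0.054), and the difference was -0.49 without background correction. Tmod1, which caps the pointed ends, lay between 3613 and 4431 and passed in no comparison.

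Of 13 Z-disc genes tested, 7 were called higher and 0 lower in WT TAC vs WT Sham (median log2 0.55), and 1 was called higher and 6 lower in KO TAC vs WT TAC (median -0.32). The share called was 53.8% in each, beside 31.1% and 41% of all genes. Ky, described below as a Z-disc protein, was counted with the filament and chaperone genes and was called lower, then higher, in these comparisons. Synpo2l (chromosome 14), which bundles actin at the Z-disc, read 418 in WT Sham, 1926 and 1473 in WT TAC, 384 in KO Sham, and 324 and 290 in KO TAC. WT TAC stood far above the other 4 arrays, of which the WT Sham array was the highest. Synpo2l was 5.02-fold higher in WT TAC than in WT Sham (log2 2.33 ± 0.23, adjusted p 0.00101), 7.80-fold lower in KO TAC relative to WT TAC (-2.96 ± 0.19, adjusted p 0.000137), and the TAC effects differed by -2.80 ± 0.32 (adjusted p 0.00439). Among the members this was the largest fall in KO TAC vs WT TAC.

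Xirp2 (chromosome 2), an actin-binding Xin repeat protein of the intercalated disc, read 5776, then 16591 and 13588, then 4404, then 4585 and 3838. All 3 KO arrays lay below WT Sham, and both WT TAC arrays well above it. It was 2.63-fold higher in WT TAC than in WT Sham (1.39 ± 0.21, adjusted p 0.00438) and 3.65-fold lower in KO TAC relative to WT TAC (-1.87 ± 0.17, adjusted p 0.000467). The TAC effects differed by -1.47 ± 0.29 (adjusted p 0.0237), which became 0.0653 without WT TAC replicate 1 and 0.0536 without WT TAC replicate 2. Its second probe was above background on the WT TAC arrays only, at 240 and 199. That probe was therefore kept only because it was high there, and its calls in the same directions in both comparisons give no support.

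PDZ-LIM proteins dock on alpha-actinin. Pdlim1 (chromosome 19) read 4834, then 11050 and 10781, then 3731, then 4398 and 3208, and was 2.29-fold higher in WT TAC than in WT Sham (adjusted p 0.00985) and 2.96-fold lower in KO TAC relative to WT TAC (log2 -1.57 ± 0.18, adjusted p 0.00121). Without WT TAC replicate 2 the first adjusted p was 0.0521. Pdlim3 (chromosome 8) read 721, then 1635 and 2137, then 644, then 706 and 937, and was 2.86-fold higher and 2.49-fold lower in the same comparisons (adjusted p 0.00747 and 0.00411). For both genes the WT TAC arrays lay above the other 4, and the difference of the TAC effects missed the threshold (adjusted p 0.0548 and 0.0946).

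Pdlim5, of that family too, was chosen for mention after its values were seen. Its brightest probe lay between 4293 and 6079 and passed in no comparison, as did the next. Probe ILMN_2621862 read 294, then 658 and 855, then 287, then 253 and 299, and was 3.39-fold higher in WT TAC than in WT Sham (adjusted p 0.00443) and 3.78-fold lower in KO TAC relative to WT TAC (adjusted p 0.000919). Which transcripts of Pdlim5 the probes match was not examined.

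Enah, which promotes actin filament growth and is held at the Z-disc and intercalated disc, read 160, then 275 and 246, then 157, then 185 and 163. It was 2.77-fold higher in WT TAC than in WT Sham (adjusted p 0.00602) and 2.26-fold lower in KO TAC relative to WT TAC (log2 -1.17 ± 0.20, adjusted p 0.00444), with the other 4 arrays close to the background level. Enah probe ILMN_1244697, above background on every array, moved less. Its log2 differences were 0.35 (adjusted p 0.169, not called) and -0.43 (adjusted p 0.0458). Probe ILMN_2636853 was called in the same directions, but was kept only because it was above background in WT TAC. Flnc, the muscle filamin that crosslinks actin around the Z-disc, read 4888, then 8144 and 6854, then 3489, then 3449 and 3268. The KO arrays lay together below WT Sham. Flnc was 2.26-fold lower in KO TAC relative to WT TAC (log2 -1.18 ± 0.15, adjusted p 0.00158) and 1.54-fold higher in WT TAC than in WT Sham (adjusted p 0.0433), the last of which became 0.144 without WT TAC replicate 1 and 0.0704 without WT TAC replicate 2.

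Of the Z-disc core, Actn2, the sarcomeric alpha-actinin, Myoz2, a calcineurin-binding calsarcin, and Csrp3, the muscle LIM protein, passed in neither WT TAC vs WT Sham nor KO TAC vs WT TAC. Their log2 differences ran from 0.02 to 0.35 in WT TAC vs WT Sham, and Actn2 and Csrp3 had values over 30000, near the top of the deposited scale. A second, dim probe of Myoz2 read 135, then 153 and 169, then 146, then 143 and 151, above background on the WT TAC arrays only. After background correction that probe was called at least 1.12-fold higher in WT TAC than in WT Sham (adjusted p 0.0347), against 1.19-fold as deposited. It was kept only because it was high on these arrays, so the call gives no support. Tcap, the titin cap, read 20093 on the WT Sham array and 26702 to 30858 on the other 5. Its call in WT TAC vs WT Sham (1.46-fold higher, adjusted p 0.0483) was lost in each fit that left out a TAC array (adjusted p 0.0519 to 0.174). Its second probe, at 12395 on the WT Sham array and 19819 to 24461 on the other 5, was called 1.80-fold higher (log2 0.84, adjusted p 0.0185). Myot, myotilin, which crosslinks actin, read 664 in KO Sham, above the 386 to 522 of the other 5 arrays, and passed in no comparison.

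Of the Z-disc genes counted above, Ldb3, the PDZ-LIM protein known as ZASP or Cypher, was called higher in KO TAC relative to WT TAC. Its brightest probe read 3043, then 2284 and 2205, then 3315, then 3391 and 3056, a 1.46-fold difference (adjusted p 0.0215) that was not called without WT TAC replicate 1, WT TAC replicate 2 or KO TAC replicate 1 (adjusted p 0.0771, 0.108 and 0.0815). Of its 5 kept probes, 3 were called higher and 2 were not called, at log2 -0.01 and -0.21.

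**Figure D3:**
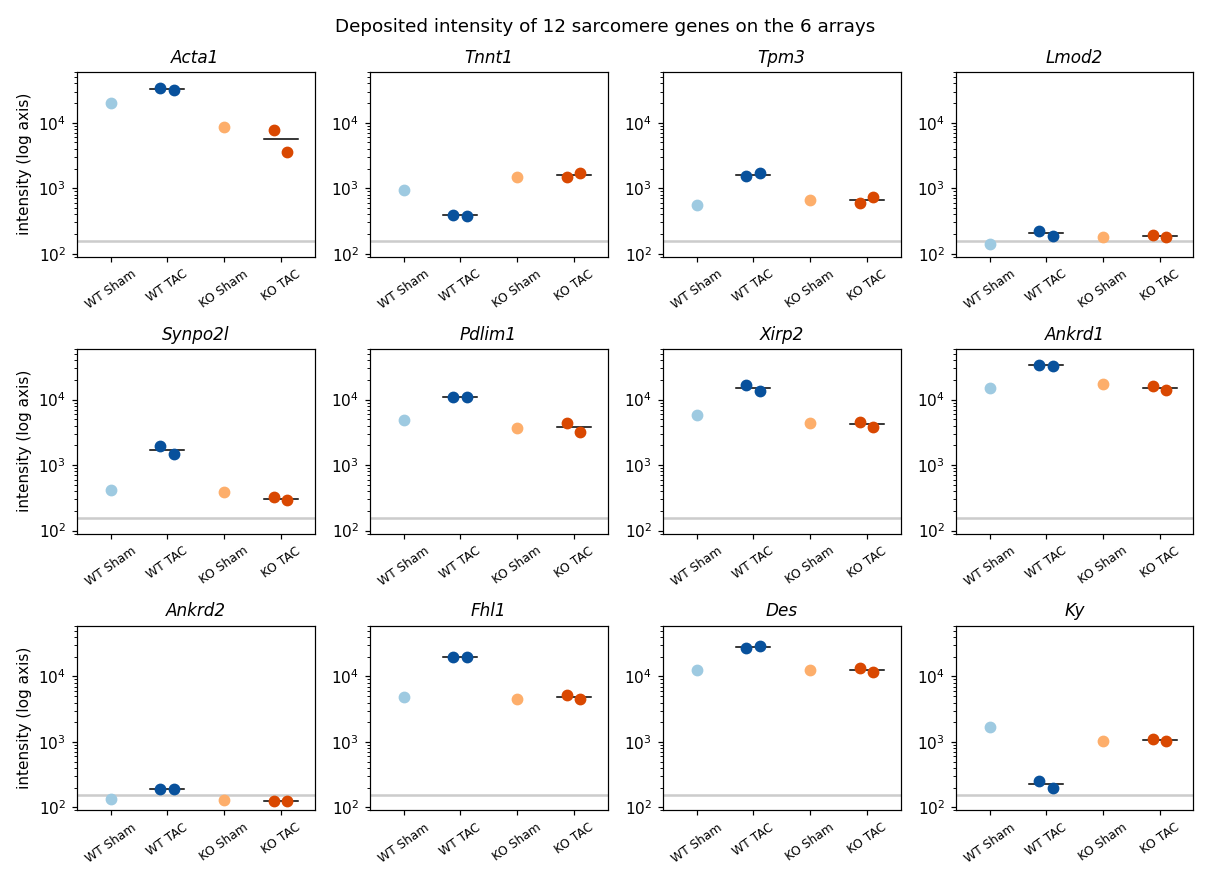
Deposited intensity (log axis) of 12 members in the 4 groups, with 1 point per array, a black line at the mean of 2 replicates and a grey band at the background level of 149.0 to 155.1. The 2 WT TAC points stand above the other 4 in Acta1, Tpm3, Synpo2l, Pdlim1, Xirp2, Ankrd1, Ankrd2, Fhl1 and Des, and below them in Tnnt1 and Ky.

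Of the 6 genes of titin and its stress-sensing partners, 4 were called higher in WT TAC than in WT Sham and 4 lower in KO TAC relative to WT TAC, with median log2 differences of 0.94 and -1.12. The share called was 66.7% in each, beside 31.1% and 41% of all genes. Fhl1 (chromosome X), a LIM-only protein bound to titin's N2B spring element, read 4861 in WT Sham, 19498 and 19766 in WT TAC, 4540 in KO Sham, and 5222 and 4493 in KO TAC. The 2 WT TAC arrays lay close together and far above the other 4, which did not separate by genotype. Fhl1 was 4.10-fold higher in WT TAC than in WT Sham (log2 2.04 ± 0.18, adjusted p 0.000715) and 4.12-fold lower in KO TAC relative to WT TAC (-2.04 ± 0.14, adjusted p 0.000199). The TAC effect was 0.10 ± 0.18 in KO hearts and differed from that in WT by -1.94 ± 0.25 (adjusted p 0.00642). A second probe gave 2.12 and -2.03 in the first 2 comparisons.

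Fhl2, the related LIM protein that docks metabolic enzymes on titin, went the other way or did not pass. Its brightest probe read 18020, then 16909 and 13371, then 21317, then 24046 and 19766, with every KO array above every WT array. It missed the threshold in KO TAC vs WT TAC (log2 0.54 ± 0.18, adjusted p 0.0507). The second probe read 2373, then 1672 and 1390, then 3266, then 3297 and 3451, and was called in that comparison (1.20, adjusted p 0.00181) and in WT TAC vs WT Sham (-0.68, adjusted p 0.0415).

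The muscle ankyrin repeat proteins sit on titin's N2A element and shuttle to the nucleus. Ankrd1 (chromosome 19), the cardiac form, read 14856 in WT Sham, 34022 and 32786 in WT TAC, 17414 in KO Sham, and 16074 and 13907 in KO TAC. The other 4 arrays overlapped in genotype, and the WT TAC arrays were over 30000, near the top of the deposited scale. Ankrd1 was 2.26-fold higher in WT TAC than in WT Sham (log2 1.17 ± 0.18, adjusted p 0.00447) and 2.24-fold lower in KO TAC relative to WT TAC (-1.17 ± 0.14, adjusted p 0.00143). Its dimmer probe, at 6496 in WT Sham and 25550 and 23214 in WT TAC, gave 1.92 and -1.66.

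The TAC effects on Ankrd1 differed by -1.40 ± 0.25 (adjusted p 0.0167, or 0.055 and 0.0619 without WT TAC replicates 1 and 2), and by -2.19 (adjusted p 0.00517) with the dimmer probe. Ankrd2 (chromosome 19), the form of slow skeletal muscle, was above background on the WT TAC arrays only, at 192 and 188 against 133 in WT Sham, 130 in KO Sham, and 124 and 126 in KO TAC. Ankrd2 was therefore tested only because it was high on these arrays, and its calls kept with an array left out give no support. After background correction it was at least 1.68-fold higher in WT TAC than in WT Sham (adjusted p 0.00154) and at least 1.73-fold lower in KO TAC relative to WT TAC (adjusted p 0.000229), against 1.42-fold and 1.51-fold as deposited. Ankrd23, also of the family, read 4168, then 7634 and 5894, then 3581, then 3407 and 3052. It was 2.12-fold lower in KO TAC relative to WT TAC (log2 -1.08 ± 0.17, adjusted p 0.00384), and 1.62-fold higher in WT TAC than in WT Sham (adjusted p 0.0468, or 0.149 and 0.0531 without WT TAC replicates 1 and 2).

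Titin itself did not move as 1 unit. The brightest Ttn probe read 18951 in WT Sham, 15556 and 12441 in WT TAC, 9794 in KO Sham, and 10254 and 13155 in KO TAC, and passed in no comparison. Of 8 kept probes, 2 were called higher and 2 lower in KO TAC vs WT TAC. ILMN_2744368, at 203, then 181 and 160, then 198, then 229 and 210, had a log2 difference of 0.80 ± 0.19 (adjusted p 0.0176) and ILMN_1228221 of 0.61 (adjusted p 0.0203). ILMN_2443220, at 462, then 492 and 340, then 245, then 218 and 293, had -1.04 ± 0.31 (adjusted p 0.0354) and ILMN_1223811 -0.67 (adjusted p 0.0445). Titin has many splice forms, and which exons these probes match was not examined.

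In KO Sham vs WT Sham the log2 differences of the 8 Ttn probes ran from -1.49 to -0.02, with none called. Those called lower in KO TAC were already lower in KO Sham (-1.34 and -1.22), and those called higher were at -0.08 and -0.02. In WT TAC vs WT Sham all 8 were below 0, from -0.80 to -0.24, again with none called.

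**Figure D4:**
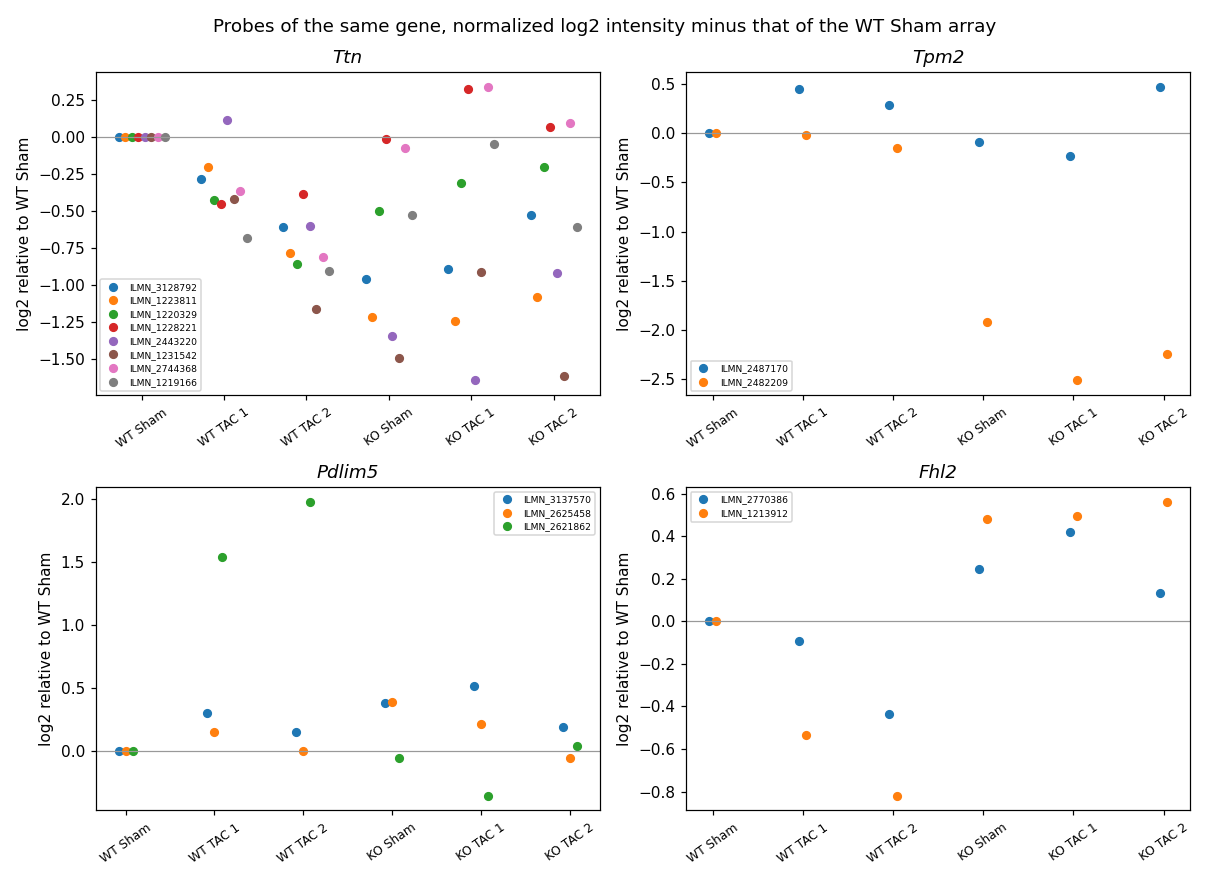
Normalized log2 intensity relative to the WT Sham array for each kept probe of Ttn, Tpm2, Pdlim5 and Fhl2 on the 6 arrays, with 1 colour per probe and the numbers 1 and 2 for the TAC replicates. Some Ttn probes and 1 Tpm2 probe are low on all 3 KO arrays, whereas 1 Pdlim5 probe is high on the WT TAC arrays alone.

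At the M-band, Myom2, a myomesin that crosslinks thick filaments, read 10760, then 18677 and 17305, then 11380, then 10913 and 9570. It was 1.68-fold higher in WT TAC than in WT Sham (adjusted p 0.0216) and 1.77-fold lower in KO TAC relative to WT TAC (adjusted p 0.00531), the first becoming 0.0823 and 0.0703 without WT TAC replicates 1 and 2. Myom1 lay between 9739 and 13343 and passed in no comparison. Smyd1, a methyltransferase that works with chaperones in folding myosin, was lower after TAC in WT hearts, at 373, then 273 and 217, then 367, then 453 and 420. Smyd1 was 1.94-fold lower in WT TAC than in WT Sham (adjusted p 0.0327, or 0.098 without WT TAC replicate 2) and 2.40-fold higher in KO TAC relative to WT TAC (log2 1.26 ± 0.21, adjusted p 0.00443).

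Among the filament and chaperone genes, Des (chromosome 1), the intermediate filament that links Z-discs to each other and to the membrane, read 12428, then 27201 and 29133, then 12686, then 13525 and 11716. The 4 arrays outside WT TAC lay within 11716 to 13525. Des was 2.28-fold higher in WT TAC than in WT Sham (log2 1.19 ± 0.18, adjusted p 0.00447) and 2.25-fold lower in KO TAC relative to WT TAC (-1.17 ± 0.15, adjusted p 0.00147), and the TAC effects differed by -1.20 ± 0.25 (adjusted p 0.0272, or 0.0666 and 0.0962 without WT TAC replicates 1 and 2). Cryab, the small heat shock protein that protects desmin and titin, lay between 16833 and 19338 with no call.

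Bag3, a co-chaperone of Z-disc protein turnover, read 16909, then 20134 and 20271, then 12757, then 14424 and 13125. It was 1.47-fold lower in KO TAC relative to WT TAC (adjusted p 0.0183), a call lost without WT TAC replicate 1, WT TAC replicate 2 or KO TAC replicate 2 (adjusted p 0.0769, 0.0892 and 0.0686).

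Ky (chromosome 9), the kyphoscoliosis peptidase, a Z-disc protein that binds filamin C, showed the largest change of the members. It read 1664 in WT Sham, 254 and 196 in WT TAC, 1021 in KO Sham, and 1115 and 1050 in KO TAC. The WT TAC arrays lay far below the rest, and the 3 KO arrays lay together between these and WT Sham. Ky was 13.2-fold lower in WT TAC than in WT Sham (log2 -3.73 ± 0.29, adjusted p 0.000482) and 8.30-fold higher in KO TAC relative to WT TAC (3.05 ± 0.23, adjusted p 0.000256). The TAC effects differed by 3.82 ± 0.41 (adjusted p 0.00392), and a second probe gave -3.72, 3.13 and 3.72.

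Genes of the same structures outside the group were read in the same way. Of 17 other Z-disc and costamere genes, 7 were called higher and 1 lower in WT TAC vs WT Sham, and 1 higher and 10 lower in KO TAC vs WT TAC. The shares called were 47.1% and 64.7%, beside 31.1% and 41% of all genes. The largest rises in WT TAC were in Pdlim7, a PDZ-LIM protein (4.95-fold), Csrp2, a LIM protein of smooth muscle (4.63-fold), Actn1, a nonmuscle alpha-actinin (4.35-fold), and Zyx, the focal adhesion protein zyxin (3.01-fold), while Jph2, which couples the calcium store to the membrane, was 2.22-fold lower. In KO TAC these were 5.53-fold, 2.44-fold, 3.83-fold and 3.45-fold lower than in WT TAC, and Jph2 was 1.74-fold higher.

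Of 8 other thin filament genes, 0 were called higher and 3 lower in WT TAC vs WT Sham (37.5% called, beside 31.1% of all genes). They were Tmod4, a tropomodulin of skeletal muscle (3.31-fold), Tnni2, the fast troponin I (at least 2.21-fold, or 1.40-fold as deposited), and Lmod3 (1.68-fold), each called higher in KO TAC relative to WT TAC. In that comparison 3 of the 8 were called higher and 2 lower (62.5% called, beside 41% of all genes). Of 7 other M-band and titin-bound genes, 1 was called higher and 1 lower in WT TAC vs WT Sham (Myom3, 1.77-fold higher, and Lrrc39, 1.70-fold lower), and 1 higher and 3 lower in KO TAC vs WT TAC. Of 14 other muscle chaperone and protein turnover genes, 2 were called higher and 2 lower in WT TAC vs WT Sham, among them Unc45b, the myosin chaperone (2.28-fold lower), and Fbxo32, the ubiquitin ligase atrogin-1 (2.11-fold higher). The shares called in WT TAC vs WT Sham in these last 2 lists, 28.6% each, were close to the 31.1% of all genes. In KO TAC vs WT TAC the share was 57.1% in the M-band and titin-bound list, beside 41% of all genes. Of 5 cofactors of serum response factor and actin signalling genes, 0 were called in WT TAC vs WT Sham and 1, Abra, was lower in KO TAC relative to WT TAC (1.61-fold).

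Markers of some other cell types moved with the same comparisons, in which 31.1% of all genes were called in either direction in WT TAC vs WT Sham and 41% in KO TAC vs WT TAC. Of 10 fibroblast markers, 8 were called higher and 0 lower in WT TAC vs WT Sham, and their summed intensity was 19827 in WT Sham, 34162 and 35205 in WT TAC and 21254 to 22599 in the 3 KO arrays. Of 5 neutrophil markers all were called higher, summing to 9666 and 14551 in WT TAC and to 915 to 1238 on the other 4 arrays, with Retnlg and Ngp below background on all of these 4. Retnlg and Ngp were therefore tested only because they were high in WT TAC, and their calls here and in KO TAC vs WT TAC give no support. Of 7 macrophage markers 3 were called higher and 0 lower, summing to 3350 in WT Sham, 7930 and 8241 in WT TAC and 3732 to 4759 in the KO arrays. In KO TAC vs WT TAC, 8 fibroblast, 5 neutrophil and 2 macrophage markers were called lower and 0 higher. Of 3 erythroid markers 2 were called higher in WT TAC vs WT Sham and 2 lower in KO TAC vs WT TAC. Of 7 endothelial markers 1 was called higher and 1 lower in WT TAC vs WT Sham, and 2 higher and 2 lower in KO TAC vs WT TAC. For 7 smooth muscle and pericyte markers these counts were 1 and 0, then 2 and 1. For the 3 atrial cardiomyocyte markers tested they were 1 and 1, then 1 and 2. The 5 atrial markers with a probe summed to 2892 and 3337 in WT TAC and to 1347 to 1631 on the other 4 arrays. Tpm3, Tpm4, Pdlim1, Pdlim7, Csrp2, Actn1 and Zyx are also made by cells other than muscle, and the part that fibroblasts, neutrophils or macrophages had in their values was not tested. Of 9 skeletal muscle markers with a probe, 7 (Actn3, Myh1, Myh4, Atp2a1, Tnnt3, Tnnc2 and Pvalb) were below background on every array. The other 2, Tnni2 and Mylpf, a fast skeletal myosin light chain, were dim and both called higher in KO TAC vs WT TAC (log2 0.97 and 0.70), and Tnni2 was called lower in WT TAC vs WT Sham, as was Tnnt1. What part skeletal muscle RNA had in Acta1, Tnnt1 and Ankrd2 was not tested.

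Of 12 immediate early and heat shock genes, 6 were called higher and 3 lower in WT TAC vs WT Sham (75% called, beside 31.1% of all genes). Fos was 28.5-fold and Junb 15.4-fold higher, and Hspa1a was 6.23-fold, Hsph1 5.73-fold and Dnajb1 3.80-fold lower. In KO TAC vs WT TAC 1 was called higher and 8 lower (75% called, beside 41% of all genes). In KO Sham vs WT Sham, a comparison of 1 array with 1, 0 were called. There 7 of the 12 had an unadjusted p under 0.05 (limma), beside 769 of the 9649 genes. The median log2 difference was -1.003 over the list and -0.006 over all genes, and genotype and single array cannot be told apart. Immediate early and heat shock genes respond fast to handling and stress. Whether their changes share a source with those in the sarcomere genes was not tested.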

How the data were processed

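Left ventricle RNA (500 ng) from 6 samples was hybridised to Illumina mouse bead arrays and summarised by the authors in GenomeStudio 2011.1, per the labels. The deposited intensity values, linear and 1 per probe, had nearly the same distribution on every array (ranked values within 0.838%), as quantile normalization by the authors would leave it; their other steps are not given in the sources used here. A deposited table of unnormalized signals was not used, as the names of its 6 signal columns tie none to a sample. Background was corrected with limma 3.58.1 (nec, robust, offset 16) in R 4.3.3, taking 1540 olfactory, vomeronasal and taste receptor probes as negative controls, followed by log2 and quantile normalization. Probes above the 99th percentile of these on at least 2 arrays were kept (16686 of 45281), and each gene was represented by its brightest kept probe. Of all probes, 34885 had 1 gene symbol, 18 several and 10378 none, and 34807 were matched to GRCm38.p6, which served for names.

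One coefficient per group was fitted on all 6 arrays with 2 residual and 4.63 prior degrees of freedom (prior SD 0.157), for 5 comparisons, two-sided, with Benjamini-Hochberg adjustment over 9649 genes. Exact permutation of 2 arrays against 2 cannot go below 0.333. Where a gene was below background in 1 group, the fold is a bound against the background level. Members were given values on every array when they passed with a log2 difference over 1 in size, when 2 probes were called in opposite directions, or when a family member did; of other lists, up to 5 of the genes with the largest changes were named. The members and the 20 lists were chosen with earlier results of these data known. The number of arrays limits the precision.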

Additional observations from a re-analysis of the deposited data

Results flagged for a closer look

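The TAC effect differed between genotypes by a test of the difference itself (the limma interaction term, 2 residual degrees of freedom) in 10 members. Given as the KO effect minus the WT effect on the log2 scale, the positive differences were 3.82 in Ky and 1.69 in Tnnt1. The negative ones were -2.80 in Synpo2l, -1.94 in Fhl1, -1.79 in Tpm3, -1.67 in Ankrd2, -1.47 in Xirp2, -1.40 in Ankrd1, -1.31 in Lmod2 and -1.20 in Des. In KO hearts alone the TAC effect on each of these genes passed no test. The WT effect rests on a single WT Sham array, and Ankrd2 and Lmod2 were near the background level.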

How the results depend on the processing

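Of 672 alternative values of the 51 called member differences, 595 kept direction and call, 75 lost the call and 2 changed sign. The sign changes were 2 of the other Ldb3 probes in KO TAC vs WT TAC (-0.012 and -0.21). Every one of the 51 calls was kept without quantile normalization and with robust empirical Bayes with trend, 1 was lost without background correction and 1 with the mean of the kept probes, 4 with a lower detection level and 8 with no filter. With no filter on dim probes, which tested 41 members, 2 members were called lower in WT TAC vs WT Sham and 5 had a negative difference of the TAC effects, against 4 and 8. Robust empirical Bayes with trend gave 14 such negative differences. The methods' t-test, adjusted, called 0 members higher and 0 lower in KO TAC vs WT TAC, and unadjusted 5 and 16.

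Leaving out 1 TAC array at a time, the members called ran from 10 to 17 higher and 2 to 4 lower in WT TAC vs WT Sham, from 3 to 6 higher and 14 to 17 lower in KO TAC vs WT TAC, and from 2 to 3 positive and 3 to 11 negative differences of the TAC effects. Without WT TAC replicate 2 these were 10, 2, 4, 14, 2 and 3. Deviations of TAC arrays with equal replicate numbers correlated at 0.0477 across genes. With 1 replicate difference in each genotype this cannot decide whether equal numbers pair the arrays. A fit with the replicate block called 6 higher and 16 lower in KO TAC vs WT TAC. KO TAC vs KO Sham and KO Sham vs WT Sham gave 0 calls among members under every alternative run; no fit on the compared arrays alone exists for KO Sham vs WT Sham. Values over 30000 in 7 members lie near the top of the scale, and arrays below background limit Ankrd2 and Lmod2.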
